A study of Saccharomyces cerevisiae with 72 samples.

Results

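The wild type *Saccharomyces cerevisiae* diploid in which *IME1* was placed under the estradiol-inducible Pzev promoter was followed from 0 to 8 h after transfer to sporulation medium. It was chosen as the samples labelled wild type with overexpression of *IME1* alone, which are 10 of the 72 samples of the series: 2 biological replicates at each of 0, 2, 4, 6 and 8 h. The background is S288c, *KAR4* is intact and *RIM4* has its own promoter. Cells were grown in rich glucose medium, then in rich acetate medium, and were moved into potassium acetate with histidine, uracil and leucine, with β-estradiol added on transfer. The starvation step and the induction began together, so that their parts in a change from 0 h cannot be told apart.

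Pzev is switched on by Z3EV, a chimeric activator that enters the nucleus when it binds β-estradiol. In the strain list of the study, the untagged wild type Pzev-*IME1* diploid carries 1 Pzev copy of *IME1* and 1 unaltered copy, with Z3EV driven by the *ACT1* promoter; the list does not say which strain was sequenced, and the 2 copies cannot be told apart in the RNA. Another 2 strains serve for comparison, the *kar4*Δ/Δ mutant with Pzev-*IME1* and wild type with endogenous promoters, each with 10 samples over the same hours and all of S288c. The mutant received the same induction, and the endogenous strain was labelled with no overexpression.

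The deposited values are log2 fold changes with both replicates already combined, and their reference is the 0 h sample of the endogenous strain. Such a value is called the level here, and the level at a time point minus the level at 0 h of the same strain is called the change. Of 6660 identifiers, 6496 had a level in every condition. There are no replicate values, errors, counts or p-values, so the depth is unknown, no difference could be held against the spread between replicates, and each is described by its size alone. A change of at least 2-fold, 1 on the log2 scale, was counted as higher or lower. In RNA from whole cultures, fewer cells with a transcript and less of it per cell cannot be told apart.

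Ime1p is the activator that starts meiosis in budding yeast. It has no DNA-binding domain of its own and is brought to the upstream repression sequence URS1 by Ume6p, which in vegetative cells holds the same genes silent together with the Sin3p-Rpd3p histone deacetylase. The genes it turns on encode the kinase Ime2p, the axis of the meiotic chromosome, the machinery that makes and repairs meiotic double-strand breaks, and the synaptonemal complex. Ndt80p, the next activator, is needed for the middle genes of the divisions and spore formation.

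The URS1 core, read as GCCGCC on one strand or GGCGGC on the other, is shown for genes on which the results below turn. Each stretch holds 30 bases on the strand of the gene, 5′ to 3′, from the R64 reference sequence of RefSeq, the assembly also named sacCer3, with the core nearest the coding start in capitals. They lie at chrVIII:402753-402782 (minus strand) for *SPO16*, chrVIII:262645-262674 (minus strand) for *SAE3*, chrXVI:321739-321768 (minus strand) for *MEI5*, chrVIII:131940-131969 (plus strand) for *SPO13*, chrXV:117525-117554 (minus strand) for *NDJ1*, chrIX:226419-226448 (plus strand) for *HOP1*, chrV:548271-548300 (plus strand) for *DMC1* and chrVII:435484-435513 (plus strand) for *HOP2*. All lie before the coding start of their gene.
SPO16: gcgtgaaaagtgGGCGGCtaaaaccgagaa
SAE3: gttctgcctaatGGCGGCtattctatttct
MEI5: gaaaaagtattaGCCGCCcaaacttctatg
SPO13: tattgagaaataGCCGCCgacaaaaaggaa
NDJ1: gcgtagaagttgGGCGGCtattttgacaga
HOP1: gtttttaacctgGGCGGCtaaattgtactt
DMC1: gaccggaaaataGCCGCCcaaggataaact
HOP2: gattatgtcctcGGCGGCtaaattttccat

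The core began 88 bases before the coding start of *SPO16* and of *NDJ1*, 95 before that of *SPO13*, 109 for *SAE3*, 126 for *MEI5*, 129 for *HOP2*, 138 for *DMC1* and 171 for *HOP1*.

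*IME1* (YJR094C, chromosome X, 604569 to 605651), the induced gene, checks the labels. Its level was 1.94 at 0 h, then 3.05, 3.40, 3.47 and 3.60 at 2, 4, 6 and 8 h. It thus stood above the endogenous strain before the time points that follow induction, and its change from 0 h was 1.11 at 2 h and 1.66 at 8 h. When the columns were quantile normalized, its mean change of 1.44 turned to -0.65. That step gives all columns a common distribution, so the value follows the rank of *IME1* among the ratios of each column. It therefore cannot decide whether *IME1* rose. With the columns centred on their medians, all 127 named genes, *IME1* among them, kept the direction of their mean change. *KAR4* was at levels of -0.52, -0.46, 0.13, 0.36 and 0.36, with changes of under 2-fold at every time point. Of the 28 haploid and mating genes, 6 were higher at 2 h and 7 at 8 h, where 23.6% and 24.2% of all genes were. Levels are relative to another strain, so that they do not show whether such a gene was off.

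*IME2* (YJL106W, chromosome X, 221390 to 223327), the kinase that carries the program forward, had levels of -0.47, 3.85, 4.35, 4.38 and 4.85, and changes from 4.32 at 2 h to 5.32 at 8 h. *RIM4*, an RNA-binding translational regulator, went from 0.70 to levels between 2.63 and 3.14, and *SLZ1*, a subunit of the mRNA methyltransferase complex, from 1.56 to between 2.88 and 3.98. These 3 and *IME1* were the regulators that were higher at every time point, 4 of 18, where 19.7% of all genes were. *NDT80* (YHR124W, chromosome VIII, 356561 to 358444) had a level of 0.16 at 0 h and between 0.49 and 0.52 afterwards, a change of 0.33 to 0.36.

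*RIM11*, a kinase that promotes the Ime1p-Ume6p interaction, was the regulator that was lower at every time point, by changes of -1.25, -1.23, -1.40 and -1.29. *SIN3* was between -0.96 and -1.17, *RIM15*, a kinase of nutrient signalling, between -0.91 and -1.02, and *RME1*, the repressor of *IME1*, between -0.68 and -1.23. *UME6* was between 0.59 and 0.64. *RPD3*, *UME1*, *SUM1*, *RIM101*, *MCK1*, *MUM2* and *IME4* stayed within 2-fold of 0 h at all 4 time points. *IME4* lies opposite the noncoding gene *RME2*, and with no strand setting given for the counting the 2 cannot be told apart.

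**Figure D1:**
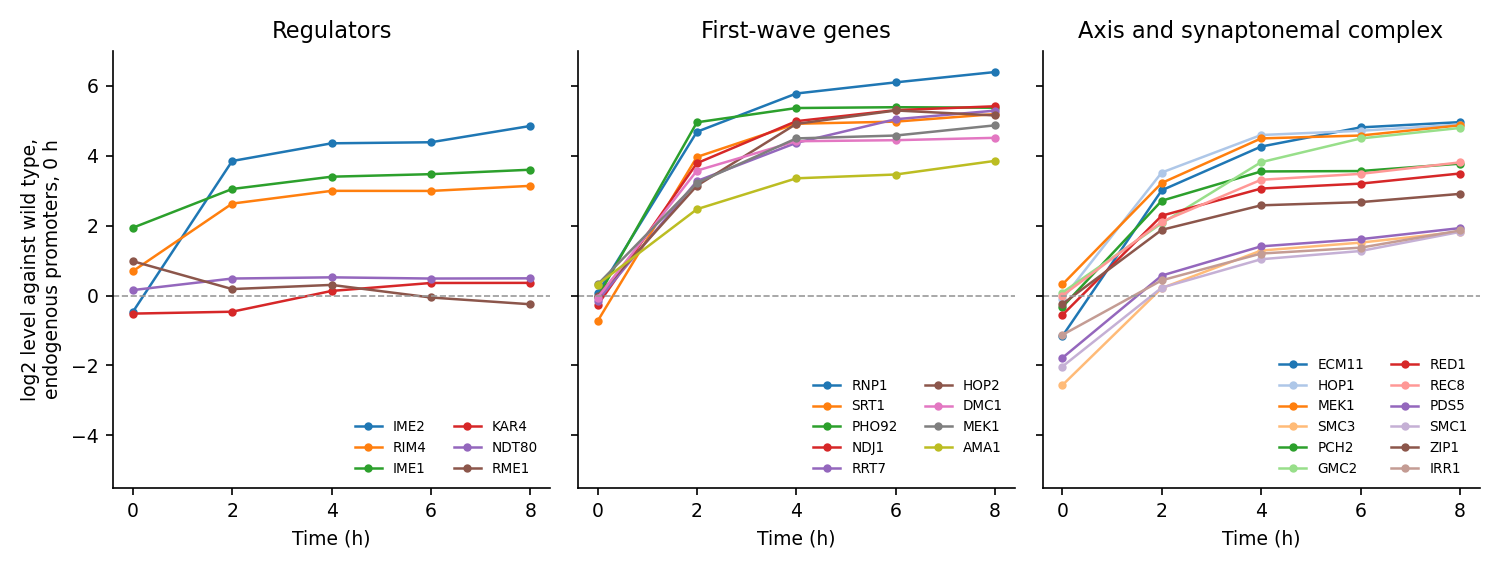
The lines show the log2 level of single genes against the endogenous strain at 0 h (dashed line) over 0, 2, 4, 6 and 8 h, for 6 regulators, the 9 first-wave genes and the 12 genes of the chromosome axis and synaptonemal complex; each point is 1 deposited value from 2 replicates. *IME1* starts at 1.94 and *NDT80* reaches at most 0.52, while all genes of the other panels climb between 0 and 2 h.

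At 2 h, 1531 of 6496 genes exceeded their 0 h level 2-fold or more (23.6%) and 798 were lower (12.3%). At 4 h the numbers were 1467 (22.6%) and 744 (11.5%), at 6 h 1554 (23.9%) and 893 (13.7%), and at 8 h 1569 (24.2%) and 910 (14.0%). These shares are the background against which the counts in each gene list are read. Most of the size was reached by the first time point. The change had an SD across genes of 1.19 from 0 to 2 h and of 0.31, 0.26 and 0.25 over the next 3 intervals, and from 4 to 6 h only 7 genes were higher and 17 lower by 2-fold.

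The genes that were higher at all 4 time points numbered 1277 (19.7%), and those lower at all 4 numbered 583 (8.97%). The 4 changes of a gene share its 1 value at 0 h, so they are not independent of each other. Another 34 were higher at 2 h and back within 0.5 of 0 h at 8 h, and 14 were lower in the same way. Within 0.5 of 0 h at 2 h and then at least 2-fold away at 8 h were 41 genes that were higher and 28 that were lower.

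**Figure D2:**
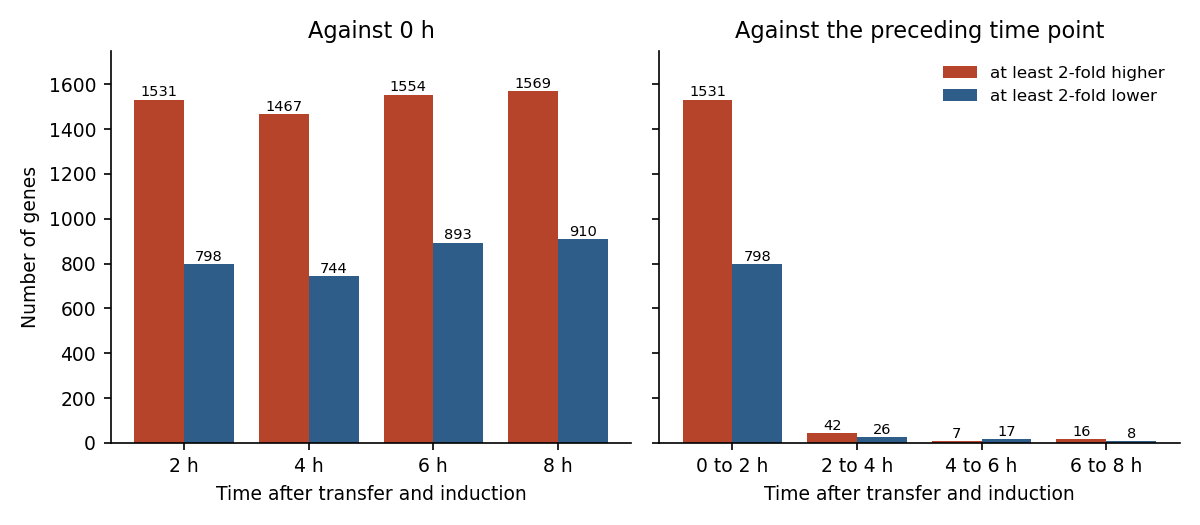
Bars give the number of 6496 genes at least 2-fold higher (red) or lower (blue), against 0 h on the left and against the preceding time point on the right. The counts against 0 h stay between 744 and 1569, and after 2 h no interval holds more than 42 genes in one direction.

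The 0 h samples of the Pzev-*IME1* strain were themselves apart from the endogenous strain. At that time 390 genes were at least 2-fold above and 1087 at least 2-fold below the endogenous strain, 22.7% of genes together. In the *kar4*Δ/Δ Pzev-*IME1* strain it was 189 above and 888 below (16.6%), and between the 2 Pzev-*IME1* strains at 0 h 8.76% of genes were 2-fold apart. Of the 1277 genes that were higher throughout, 854 started at least 2-fold below the endogenous 0 h level. The 0 h level also enters the change, so this count is not separate from it. Within 2-fold of that level at 2, 4, 6 and 8 h were 698, and 281 were at least 2-fold above it at all 4. Of the 583 that were lower throughout, 336 were within 2-fold of the endogenous 0 h level at all 4 time points. Another 116 were at least 2-fold below it at all 4. Over all genes, 347 (5.34%) were above and 187 (2.88%) below it at all 4. The part that the state at 0 h had in each change was not tested.

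The largest mean changes over the 4 time points belonged to recombination genes. *SPO16* (YHR153C, chromosome VIII, 402086 to 402682), which acts with the ZMM proteins that promote crossovers, had levels of -2.69, 3.15, 4.99, 5.11 and 5.31 and a mean change of 7.33. *SAE3* (YHR079C-A, chromosome VIII, 262192 to 262553), at a mean change of 7.13, had levels of -1.66, 4.99, 5.66, 5.79 and 5.45. *MEI5* (YPL121C, chromosome XVI, 320962 to 321630), whose product forms with Sae3p the complex that loads the recombinase Dmc1p, had levels of -0.09, 5.09, 6.38, 6.90 and 7.18 and a mean change of 6.47. In each of the 3, the level at 0 h was below that at every later time point by more than 5 on the log2 scale.

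Among the 15 highest mean changes were also *RNP1*, an RNA-binding protein gene (5.66), *SRT1*, a cis-prenyltransferase gene (5.49), *SPO13*, needed for the pattern of the first division (5.43), *ECM11*, a synaptonemal complex gene (5.42), *PHO92*, the reader of methylated mRNA (5.32), *NDJ1*, which tethers telomeres for their meiotic movement (5.14), and *IME2* (4.83). YLL047W (5.68) and YDR015C (4.84) have no standard name and are not in the annotation. Their overlap with other genes, and so shared reads, could not be checked. YLL047W had changes of 4.69, 5.70, 5.97 and 6.35, close to those of *RNP1* at 4.61, 5.70, 6.02 and 6.32. The remaining 3 were metabolic: *ARG1* of arginine synthesis (6.17), *INO1* of inositol synthesis (5.46) and *GDH1*, the NADP-dependent glutamate dehydrogenase (5.15).

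The study divided Ime1p-dependent genes into 9 of a first and 38 of a second wave from its own microarrays, so their direction here is not independent evidence. All 9 first-wave genes were higher at every time point, with a median level of -0.05 at 0 h and median changes of 3.63, 4.92, 5.31 and 5.42, where the median of all genes was between 0.02 and 0.07. Besides *RNP1*, *SRT1*, *PHO92* and *NDJ1* they included *AMA1*, an activator of the anaphase-promoting complex, whose changes were the smallest of the 9, from 2.16 to 3.54. Of the 38 second-wave genes, 27 were higher at 2 h and 34 at each later time point, none was lower, and the medians were 1.86, 2.29, 2.51 and 2.74 from a level of 0.05 at 0 h. *HUL4*, a ubiquitin ligase gene on that list, had changes between -0.52 and -0.07.

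All 12 genes of the chromosome axis and synaptonemal complex were higher at every time point, with medians of 2.57, 3.67, 3.82 and 4.07 from a level of -0.44 at 0 h. *HOP1*, an axis protein of meiotic chromosomes, had levels of -0.10, 3.52, 4.59, 4.71 and 4.89. *ECM11* went from -1.16 to levels of 3.01 at 2 h and 4.96 at 8 h. *GMC2*, the partner of Ecm11p, was later, with changes of 1.98, 3.73, 4.41 and 4.71. The cohesin subunit gene *SMC3*, which mitotic cells also use, began at -2.56 and had changes of 2.78 to 4.38, while the meiotic kinase *MEK1* began at 0.32 and had changes of 2.90 to 4.55. From 2 to 8 h all 12 gained a further 2-fold or more, a size that 1.89% of all genes reached and that 1.49% reached in the other direction.

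Of the 12 strand-exchange genes, 9 were higher at every time point, with medians of 2.54, 3.29, 3.34 and 3.33 from a level of -0.10 at 0 h. *DMC1*, the meiotic recombinase, had levels of -0.06, 3.57, 4.41, 4.44 and 4.51, and *HOP2*, which with Mnd1p assists it, had changes of 3.16, 4.92, 5.31 and 5.16. The 3 that were within 2-fold were *RAD52*, *RAD55* and *RAD57*, which also serve mitotic repair, with mean changes of 0.10, 0.69 and 0.53. The 14 ZMM and crossover genes were less uniform, with 6 higher at 2 h and 9 at 4, 6 and 8 h, and medians from 0.69 to 1.78, from a level of -0.15. *MSH4*, a MutS homologue, had changes of 1.92 to 3.16, and *MLH3*, whose product resolves crossovers, of -0.46 to 0.07.

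Of 11 genes of double-strand break formation, 3 were higher at 2 h and 6 from 4 h on, and the medians were 0.32, 1.07, 1.40 and 1.66 from a level of 0.14. *MEI4*, *REC104* and *SPO11*, the last of which encodes the protein that cuts the DNA, were the 3 at 2 h, with changes of 2.98, 2.20 and 1.26 then and of 4.33, 2.91 and 2.34 at 8 h. *REC102* had 0.69 at 2 h and 2.06, 2.54 and 2.44 afterwards. *REC107* was lower at 2 h, at -1.32, and between -0.77 and -0.57 later. *MRE11*, *RAD50* and *XRS2*, the complex shared with mitotic repair, stayed within 2-fold.

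The 43 valued genes of the Ndt80p regulon, the middle genes, had a median level of -0.03 at 0 h and median changes of 0.14, 0.28, 0.36 and 0.63, with 9, 12, 13 and 16 higher and 5, 5, 5 and 4 lower. The highest were *AMA1*, *SPO21*, of the meiotic spindle pole body (1.87 to 2.37), and the B-type cyclins *CLB6* (1.59 to 2.11) and *CLB4* (1.56 to 1.79). *OSW2* of the outer spore wall had changes of -1.81 to -1.56. Of 12 late spore wall genes, with a median of 0.43 at 0 h and median changes of -0.48 to -0.21, 4, 5, 5 and 4 were lower. The 2 that were higher at each time point were *DTR1*, a transporter gene, and *LDO16*, which overlaps *LDO45*. *SPS100* was among the lowest genes of the whole table, at levels of 0.86, -4.12, -4.01, -4.91 and -5.79; it overlaps the noncoding *SUT169*.

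**Figure D3:**
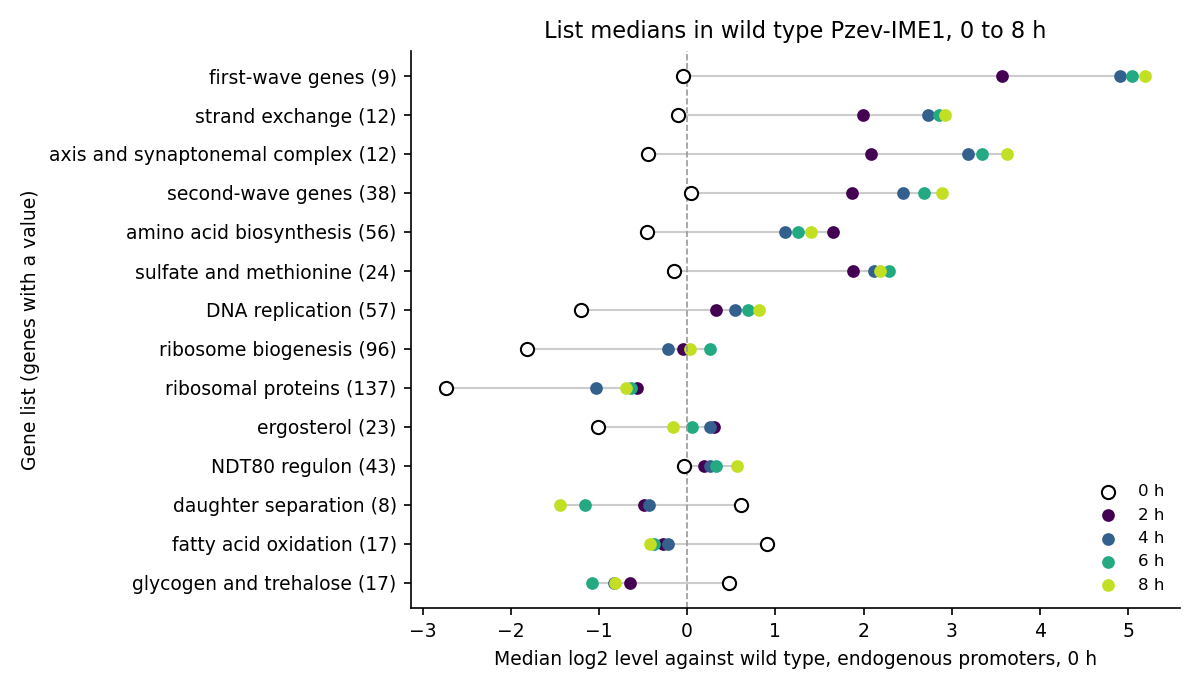
Each row is a gene list with its number of genes; the points give the median log2 level at 0 h (open) and at 2, 4, 6 and 8 h (filled, dark to light) against the endogenous strain at 0 h (dashed line). The first-wave median goes from -0.05 to 5.19, whereas the ribosomal protein median goes from -2.73 to -0.70 and stays below the line.

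Genes of growth were also higher than at 0 h, from a lower start. The 137 cytosolic ribosomal protein genes had a median level of -2.73 at 0 h and of -0.57, -1.03, -0.64 and -0.70 at the later time points. Against their own 0 h, 133, 128, 131 and 130 were therefore higher, with medians of 2.12, 1.68, 2.07 and 2.04. Against the endogenous strain at 0 h, however, none was 2-fold above at all 4 time points and 10 were below. *RPL14A* had levels of -3.40, -0.07, -0.69, -0.34 and -0.04, all below the endogenous strain at 0 h. Many of these genes are near-identical pairs between which the counting could split reads, and the split is uncertain.

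The 96 ribosome biogenesis genes went from a median of -1.82 to -0.05, -0.22, 0.26 and 0.03, with 86, 83, 89 and 87 higher than at 0 h. *GAR1*, of the small nucleolar ribonucleoproteins that modify rRNA, had levels of -2.60, 0.48, 0.23, 0.44 and 0.55. *RRP7* (-0.86 to -0.56) and *RIO1* (-0.69 to -0.49) were the 2 with the lowest changes. The 20 genes of RNA polymerases I and III had medians between 1.61 and 1.91, from -1.22 at 0 h.

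The 57 DNA replication genes started at a median of -1.20 and had median changes of 1.47, 1.64, 1.83 and 1.95, with 36, 37, 40 and 39 higher. *POL30*, the sliding clamp, had levels of -2.70, 1.38, 1.28, 1.41 and 1.77, and *RNR1*, the large subunit of ribonucleotide reductase, of -3.03, 0.98, 0.57, 0.73 and 1.44. *CDC21*, thymidylate synthase (3.66 to 4.44), and *CDC45*, of the replicative helicase (3.63 to 4.05), were alike in size of change. Their levels were -3.18 and -2.95 at 0 h, and 0.48 to 1.27 and 0.68 to 1.10 later. Of the 57 genes, 1 was at least 2-fold above the endogenous 0 h level at all 4 time points and 2 were below it. *RNR3*, the alternative large subunit that DNA damage induces, was lower, from -1.16 at 2 h to -2.74 at 6 h and -2.61 at 8 h. The 10 histone genes had medians between -0.21 and 0.68 from a level of 0.08, and 1, 0, 1 and 4 of them were higher.

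Amino acid synthesis ended above the endogenous 0 h level. Of 56 genes, 48, 44, 45 and 47 were higher and none was lower, with medians of 2.23, 1.94, 2.00 and 2.05 from a level of -0.45. At least 2-fold above the endogenous 0 h level at all 4 time points were 31 genes. *ARG1* had levels of -0.56, 5.59, 5.45, 5.58 and 5.83, and *GDH1* of -2.17, 2.36, 2.86, 3.22 and 3.47. *ARO4*, of aromatic amino acid synthesis, had changes of 3.83 to 4.59 and *LEU9*, of leucine synthesis, of 3.76 to 4.29. Of 24 genes of sulfate and methionine, 20 were higher at every time point, with medians of 2.08 to 2.48 from a level of -0.14; *SUL1*, a sulfate permease, was at 1.68 at 2 h and at 5.22, 5.61 and 5.65 later. *MET4* (-0.80 to -0.44) and *MET31* (-0.66 to -0.28), which encode activators of this group, were within 2-fold of 0 h.

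Genes for the use of other nitrogen sources moved apart from most of the table in time. *MEP2*, the high-affinity ammonium permease, had levels of -0.60, 2.03, 3.54, 4.44 and 5.78, and *GAP1*, the general amino acid permease, had changes of 1.85, 2.45, 3.09 and 3.91. *DAL80*, a GATA repressor of this regulon, had levels of -1.24, -0.18, 0.83, 1.87 and 3.82, and *DAL5*, the allantoate permease, had changes of 0.35, 0.74, 1.67 and 3.24. Of the 24 valued genes for allantoin, urea, proline and arginine use, 9 were higher at 2 h and 13 at 8 h, and 8 gained 2-fold or more between those times. *CAR1*, arginase, was in place by 2 h, with changes between 4.65 and 4.89. *PUT1* of proline use (mean change -2.03) and *GDH2*, the NAD-dependent glutamate dehydrogenase (-2.37 to -1.74), were lower at every time point. Of the 22 permease genes, with a median of -0.21 at 0 h, 11, 10, 12 and 12 were higher and 3, 6, 5 and 5 lower, the latter including *ALP1* (-2.29 to -2.16) and *BAP2* (-1.93 to -1.02). In wild type with endogenous promoters, *MEP2*, *GAP1* and *DAL80* rose without the induction, with mean changes of 4.59, 3.18 and 2.90. With Pzev-*IME1* their mean changes were 4.55, 2.82 and 2.82. *CAR1* and *DAL5* changed less with endogenous promoters, *CAR1* by a mean of 1.59 against 4.75. The part that the induction had in these changes was not tested.

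The other largest differences between 2 and 8 h were of *LDS1*, YKR033C and YIL025C. *LDS1*, a spore wall gene, had levels of 0.16, 0.32, 1.07, 1.39 and 3.32. YKR033C and YIL025C, at 4.26 and 2.91, have no standard name and are not in the annotation. Their overlap with other genes, and so shared reads, could not be checked. YKR033C had levels of -0.85, -0.19, 1.10, 1.75 and 4.07, close to those of *DAL80*. On the other side, *SED1*, an abundant cell wall protein gene, had levels of 0.69, -0.66, -1.08, -1.99 and -3.33. *CWP1*, another wall mannoprotein gene, was 2.59 lower on the log2 scale at 8 h than at 2 h, *CTT1*, the cytosolic catalase, 2.13 lower, *GRE1*, a hydrophilin of stress, 2.03 lower and *SSU1*, the sulfite pump, 1.92 lower. *PAU6* and *PAU11* belong to a family of near-identical genes, and their differences of -1.80 each are uncertain for that reason.

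The lowest mean change was that of *SPG1*, a stationary phase gene, which had levels of 2.04, -3.40, -3.38, -3.69 and -3.98 and a mean change of -5.65. *ADH2*, the glucose-repressed alcohol dehydrogenase, had levels of -1.01, -5.68, -6.95, -7.16 and -6.63 and a mean change of -5.60. *ALD3*, an aldehyde dehydrogenase induced by stress (-5.29), *RGI2*, of respiratory growth (-4.95), *GRE1* (-4.87), *SPI1*, a cell wall protein gene (-4.44), and *ATO2*, which encodes a putative ammonium exporter (-3.75), were also among the lowest 15. Of these only *ADH2* began below the endogenous 0 h level, and all were below it from 2 h on. *ADH2* and *ALD3* have close paralogs, *ADH1* and *ALD2*, with which the counting could share reads.

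Of 17 genes of glycogen and trehalose, 11 were lower at each time point and none was higher, with medians of -1.18, -1.32, -1.62 and -1.55 from a level of 0.47 at 0 h. *TPS2*, trehalose-6-phosphate phosphatase, had levels of 1.27, -1.13, -1.17, -1.35 and -1.25. Of 17 genes of fatty acid oxidation, 12, 10, 12 and 11 were lower and none was higher, with medians between -1.58 and -1.37; their median level was 0.90 at 0 h and between -0.42 and -0.22 later. *IDP3*, the peroxisomal isocitrate dehydrogenase, had changes of -3.40 to -3.07 and *POT1*, the thiolase, of -2.82 to -2.51. *ADR1*, the activator of several of these genes and of *ADH2*, had changes between -2.30 and -1.90.

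Not all of respiration and carbon metabolism moved with these. Of 38 respiratory chain genes, 5, 4, 4 and 4 were higher and 1, 0, 0 and 2 lower; *CYC1*, the main cytochrome c, had changes from 3.21 at 2 h to 2.01 at 8 h. Of 27 genes of the tricarboxylic acid and glyoxylate cycles and gluconeogenesis, with a median of -0.71 at 0 h, 6, 4, 4 and 5 were higher and 8, 8, 9 and 9 lower. *IDH2* (1.97 to 2.58) and *IDH1* (1.49 to 1.87) were higher, and *CIT3* (-2.32 to -1.53), *FBP1* of gluconeogenesis (-2.03 to -1.18) and *CIT2* (-2.10 to -1.40) were lower. *IDH2*, *IDH1* and *CIT3* had levels of -2.50, -2.05 and 1.80 at 0 h, and against the endogenous 0 h sample their mean changes turned to -0.32, -0.43 and 0.051. Of the 21 autophagy genes none was higher and 3 to 6 were lower. The 33 proteasome genes had medians between -0.25 and -0.14, and the 1 that was lower was *RPN4*, the activator of proteasome genes (-2.07 to -1.85).

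Daughter separation genes, which cells use at the end of a mitotic cycle, were lower in growing number. Of 8, 5, 6, 7 and 7 were lower, with medians of -1.21, -1.15, -1.81 and -2.02 from a level of 0.61. With endogenous promoters the median of their mean change was -1.40, against -1.48 here. *EGT2* had levels of 1.02, -0.48, -0.53, -1.66 and -1.95, and the chitinase *CTS1* had changes from -1.10 to -2.17. Of the 16 genes of the mitotic *CLB2* cluster, 5 were higher at 2 h and 1 at 8 h, the cyclins *CLB2* and *CLB1* being at 0.85 and 0.63 at 2 h and at 0.35 and -0.57 at 8 h. Of 23 ergosterol genes, 15 were higher at 2 h and 10 at 8 h, from a median level of -1.01 at 0 h. *ERG4* had changes of 2.65 to 3.65 from a level of -3.34, and against the endogenous 0 h sample its mean change was -0.30.

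Promoters were read as the 250 bases before to 50 after the coding start, and the shares below are descriptions without a test. A match says that these letters are present, not that a factor binds. The URS1 core was in 304 of 5880 promoters on either strand (5.17%). It was in 8 of the 9 first-wave genes (88.9%), *AMA1* being without it, in 18 of 38 second-wave genes (47.4%), in 6 of 12 axis and synaptonemal complex genes, in 5 of 12 strand-exchange genes (41.7%) and in 3 of 11 genes of break formation (27.3%). Of the 255 promoters of genes higher throughout and above the endogenous 0 h level, 38 held it (14.9%). Of the 633 of genes higher throughout but within 2-fold of that level, 25 held it (3.95%).

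By size of mean change, the core was in 17 of 36 promoters at 4 or more (47.2%), in 13 of 75 between 3 and 4 (17.3%), in 20 of 376 between 2 and 3 (5.32%) and in 1 of 107 below -2 (0.935%). Of the 15 annotated genes with the highest mean change, 9 had it, among them *INO1*. The others had no match in this window, among them *ARG1*, *GDH1*, *SUL1*, *ECM11* and *IME2*. In 500 bases before the start, 10 of the 15 held it. No match says only that these letters are not in the window.

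**Figure D4:**
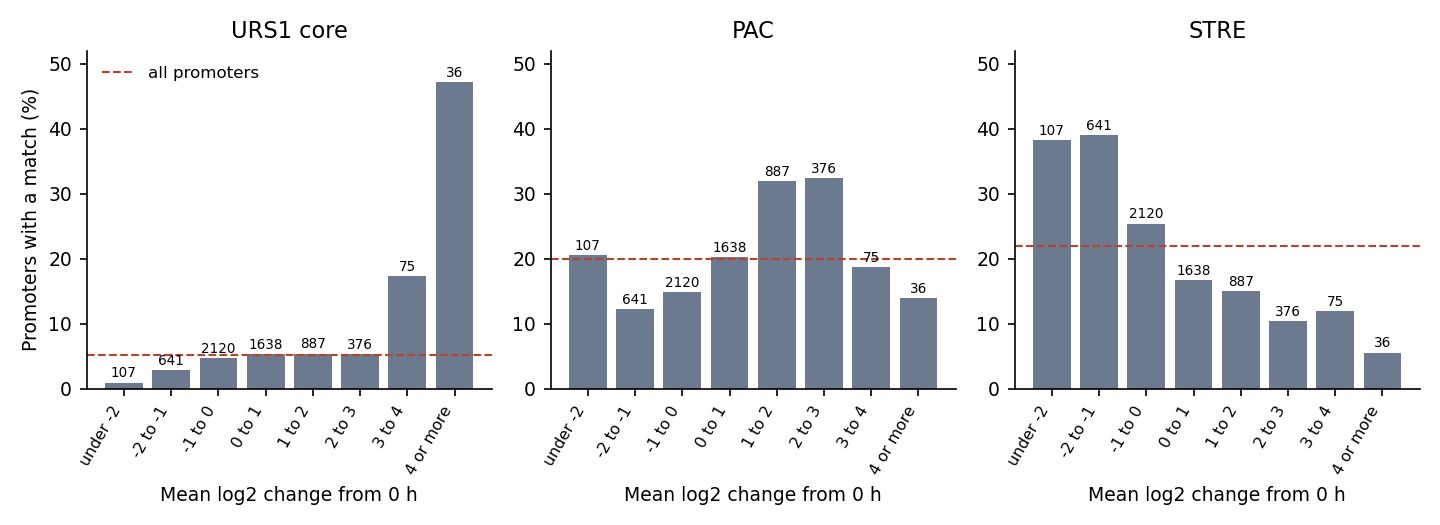
Bars give the percentage of promoters with a match to the URS1 core, PAC or STRE, by mean log2 change from 0 h over 2, 4, 6 and 8 h, with the number of promoters above each bar and the share in all promoters as a dashed line. The URS1 share is 47.2% at changes of 4 or more, the PAC share reaches 32.4% between 2 and 3, and the STRE share is 39.0% between -2 and -1.

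The other motifs fell on other groups. PAC, read as GATGAG or CTCATC, a site of ribosome biogenesis promoters, was in 89 of the 96 genes of that list (92.7%) and in 1172 of all promoters (19.9%). It was in 279 of the 633 promoters of genes higher throughout but within 2-fold of the endogenous 0 h level (44.1%), and in 36 of the 255 above it (14.1%). MCB, ACGCGT on both strands, the site of the G1/S factor MBF, was in 25 of 57 DNA replication genes (43.9%) against 183 promoters in all (3.11%), and also in 5 of the 12 axis and synaptonemal complex genes (41.7%). STRE, CCCCT or AGGGG, bound by the stress factors Msn2p and Msn4p, was in 222 of 536 promoters of genes lower throughout (41.4%) and in 1286 in all (21.9%). CACAAA or TTTGTG, part of the middle sporulation element that Ndt80p binds, was in 35 of 43 genes of the Ndt80p regulon (81.4%) and in 1117 in all (19.0%).

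The change was set beside that in *kar4*Δ/Δ with the same promoter, each strain against its own 0 h, so that no samples were shared. The Pearson correlation of the changes over 6496 genes, none of them an independent replicate, was 0.850 at 2 h, 0.875 at 4 h, 0.898 at 6 h and 0.916 at 8 h. The 2-fold differences numbered 452 higher and 310 lower in wild type at 2 h and 274 and 137 at 8 h. In the mean over time points, 187 genes were higher and 117 lower in wild type. The first-wave median of the mean change was 4.64, and 4.06 in the mutant, and 2 of the 9 genes were 2-fold higher in wild type. *SAE3* was among the 5 largest differences, at a mean change of 7.13 against 4.72. Both are changes from the strain's own 0 h, where 8.76% of all genes were 2-fold apart between these strains. The study compared normalized counts at 8 and 12 h instead, and reported little to no effect on the *SAE3* transcript.

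*IME1* itself had a mean change of 1.44, and of 1.75 in *kar4*Δ/Δ. *SLZ1* was at 2.06 against 0.48. The other highest differences were of YOR385W (-1.30 against -4.41), *BAG7* (-1.18 against -3.63, from a level of 2.23 at 0 h here), and *DIA1* with YMR316C-A, which overlap each other (-0.17 against -2.59 and -0.14 against -2.58). The lowest were of the histone gene *HTB2* (0.88 against 3.48), YDR133C (-0.42 against 1.89), *GIC2*, a Cdc42p effector gene (2.57 against 4.87), and the wall genes *SCW11* (-1.82 against 0.48) and *SUN4* (-0.29 against 2.00). Of the 8 daughter separation genes, 6 were 2-fold lower in wild type, where 117 of all 6496 genes were. Their medians of the mean change were -1.48 and 0.12, and -1.40 in wild type with endogenous promoters. Of the 137 ribosomal protein genes, 22 were 2-fold higher, where 187 of all 6496 genes were. The differences have no replicate check, and YDR133C is not in the annotation, so that its overlap with other genes could not be checked.

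Wild type with endogenous promoters changed less over the same hours. Its changes had SDs across genes of 0.56 to 0.67, against 1.16 to 1.31 with Pzev-*IME1*, and the correlation of the changes was 0.257, 0.358, 0.340 and 0.299. In the mean over time points, 1416 genes were higher and 724 lower with Pzev-*IME1*. *IME1* had a mean change of 0.67 with its endogenous promoter, *IME2* 1.79 and *RIM4* 0.82, and the first-wave median was 1.92. Amino acid synthesis was at 0.89, sulfate and methionine at 1.28, ribosomal proteins at -0.32 and ribosome biogenesis at -0.17. The genes for allantoin, urea, proline and arginine use were at 0.57, against 0.77 with Pzev-*IME1*. The permease genes were at 0.64, against 1.14 with Pzev-*IME1*. The largest differences were of *SPO16* (7.33 against 0.52), *RNR1* (3.96 against -1.43), *TOS6* (3.39 against -1.62), *CHA1*, the serine deaminase (-0.18 against -4.88), and *RSR1*, of bud site selection (3.70 against -0.96). In the other direction were *SPS100* (-5.57 against 0.27), *ALD3* (-5.29 against 0.42), *SPG1* (-5.65 against -0.03), *GRE1* (-4.87 against 0.36) and *HBT1* (-4.74 against 0.10). The first 5 all started low in the Pzev-*IME1* strain, with 0 h levels of -2.69 for *SPO16*, -3.03 for *RNR1*, -2.94 for *TOS6*, -2.85 for *CHA1* and -2.33 for *RSR1*. In the other direction, *SPS100*, *ALD3*, *SPG1* and *GRE1* started above the endogenous 0 h level. Each change subtracts the 0 h level, so these starts are not separate from the ranking.

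**Figure D5:**
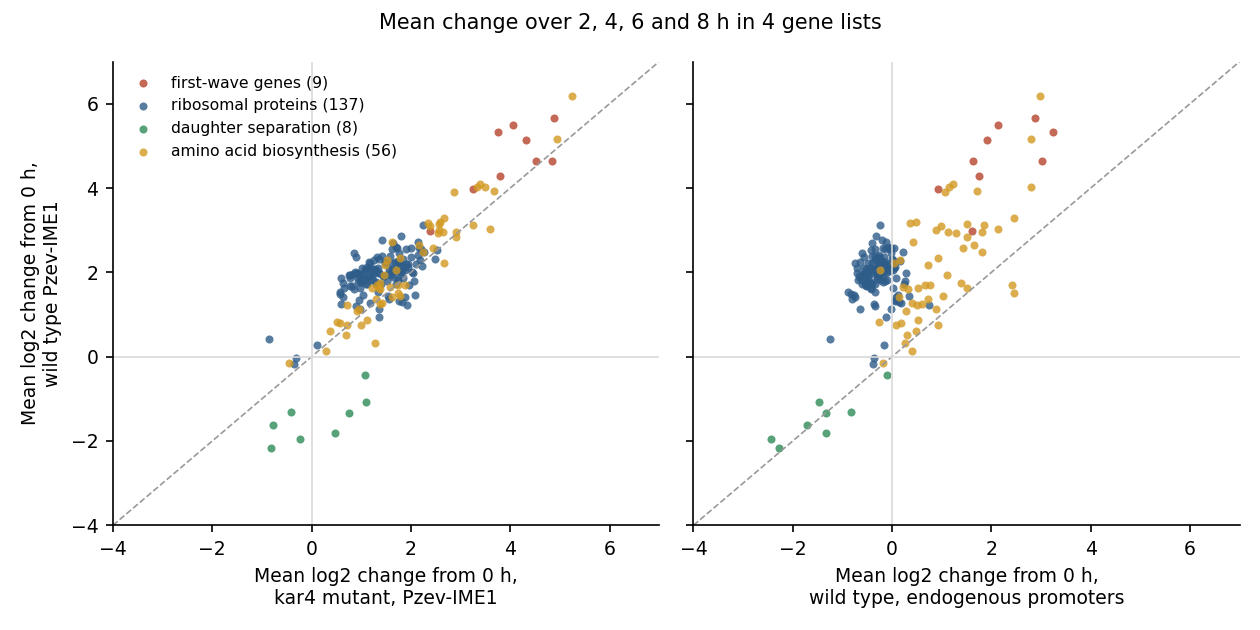
Points are genes of 4 lists, placed by their mean log2 change from 0 h over 2, 4, 6 and 8 h in wild type Pzev-*IME1* (vertical axis) and in the *kar4* mutant with Pzev-*IME1* or wild type with endogenous promoters (horizontal axes); the dashed line marks equal change. The first-wave medians are 4.64 and 4.06 on the left, where *HOP2* lies below the line (4.64 against 4.84), and 4.64 and 1.92 on the right, where all 9 lie above it; the daughter separation genes lie below it on the left.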

How the data were processed

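The deposited table gives log2 fold changes that the authors computed with DESeq2, on the Galaxy platform, from reads mapped with BWA-MEM to the yeast genome (sacCer3, per the labels) and counted with htseq-count; versions and strand setting are not given in the sources used here. Each of its 36 value columns combines 2 biological replicates against the endogenous strain at 0 h. Its 16 nameless columns were not used. Whether fold changes were shrunk is not stated, and subtracting 2 columns assumes that they are additive. The 164 identifiers without a value in every column were left out. A change was the column at 2, 4, 6 or 8 h minus that at 0 h. As the table has 1 value per condition, the models planned for values per library could not be run and no p-value is given.

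The strain, the 41 gene lists and the rules were chosen with earlier results of these data known. Named genes were the 15 highest and 15 lowest mean changes, the 8 largest differences each way between 2 and 8 h, all regulators, up to 4 members each way of a described list, and the 5 largest differences each way from each other strain. Other genes were named after their values were seen. Symbols, coordinates and promoters are from RefSeq R64, in which 5986 identifiers were found. Counting steps were tested on simulated data. Alternatives were quantile normalization, median centring, other gene sets, a 4-fold size, the endogenous 0 h reference and other promoter windows. Scripts ran in Python 3.11.15 (pandas 2.3.3, numpy 2.4.6), and plots were drawn with matplotlib 3.10.9.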

Additional observations from a re-analysis of the deposited data

Results flagged for a closer look

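The 7 genes below were at least 2-fold higher than at 0 h at 2, 4, 6 and 8 h in wild type Pzev-*IME1* and at least 2-fold lower than at 0 h at all 4 time points in wild type with endogenous promoters. With 1 value per condition the difference between the strains was not tested. Each change is from the strain's own 0 h, and at 0 h 22.7% of all genes were 2-fold apart between these strains. The part that the state at 0 h had in these differences was not tested either. *YHB1*, a nitric oxide oxidoreductase gene, had a mean change of 3.05 with Pzev-*IME1* and -1.48 with endogenous promoters. YMR307C-A, which has no standard name, was at 2.25 and -2.23. *GAS1*, a wall glucanosyltransferase gene, was at 2.03 and -2.07. *MCD1*, the mitotic cohesin kleisin whose meiotic counterpart is *REC8*, was at 1.85 and -1.56. *CCW12*, a wall mannoprotein gene, was at 1.70 and -2.06. *FIT1*, a wall gene of iron retention, was at 1.63 and -1.65. Its level with Pzev-*IME1* was -1.52 at 0 h and between -0.44 and 0.81 later, so never 2-fold above the endogenous 0 h level. *HBN1* was at 1.40 and -1.58. Between the Pzev-*IME1* strains with and without *KAR4*, the number of such genes was 0.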

How the results depend on the processing

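No paired analysis was possible because each condition has 1 value that combines both replicates, and for the same reason no replicate could be left out and no other count model, low-count filter or pseudocount was run. Depth and replicate error are unknown. Centring the columns, taking the genes valued in the strain's 5 columns, keeping protein-coding genes and reading 250 bases before the start moved no count by over 1.5 times.

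At 4-fold, 531, 421, 647 and 631 genes were higher and 105, 97, 146 and 164 lower at 2, 4, 6 and 8 h, with 329 and 73 at all 4; 0 and 1 were early only, 6 and 1 delayed, and 21 above and 335 below the endogenous level at 0 h. The mean change differed 4-fold from that in *kar4*Δ/Δ in 9 higher and 11 lower genes, and from that in the endogenous strain in 539 and 123.

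With the endogenous 0 h sample as reference in place of the strain's own, which by construction removes the starting difference, 507, 535, 630 and 652 genes were higher and 252, 383, 442 and 392 lower, with 347 and 187 at all 4, 8 lower early only, and 63 and 44 delayed. On this reference 64 genes were lower than in *kar4*Δ/Δ, and 360 higher and 269 lower than in the endogenous strain. The ribosomal protein median turned to -0.72, and mean changes turned sign for *BAG7* (1.06), *CIT3* (0.051), *ERG4* (-0.30), *IDH1* (-0.43), *IDH2* (-0.32) and *RPL14A* (-0.28). Another 10 of 41 list medians and 66 of 127 named genes moved by over 1.5 times.

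Quantile normalization gave 1279, 1106, 1299 and 1290 higher and 1194, 1054, 1159 and 1200 lower genes, 892 and 858 of them at all 4, 24 lower early only, and 654 above and 586 below at 0 h. The mean change then differed from *kar4*Δ/Δ in 294 and 234 genes and was below the endogenous strain in 1110. The mean change of *IME1* turned to -0.65, which follows its rank among the ratios of each column and does not decide its direction. Another 3 list medians and 25 named genes moved by over 1.5 times. The cause was not tested. In 500 bases before the start, 567 promoters held the URS1 core.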
